A study of Mus musculus with 7 samples.

Results

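The regions described here are the widest domains called as open in early G1 endothelial cells: 9976 of the 575882 autosomal peaks in the early G1 list, or 1.73%, chosen by a called width of at least 6000 bp. Peaks of the same list that were 1000 to 2000 bp wide, 168424 in number, are set beside them and called short peaks. All autosomal peaks of the early list together covered 43.1% of sequenced autosomal bases. Their median enrichment was 2.09-fold over the local background. The data were ATAC-seq, in which a transposase cuts exposed DNA, of retinal endothelial cells from FUCCI reporter mice at postnatal day 6. FUCCI marks cell cycle phase by fluorescence, and living cells with CD31 and without CD45 were sorted as early G1 when blank (3 libraries) and as late G1 when red (4 libraries). All groups therefore shared genotype, age and tissue, the driver of the reporter is not given, and nothing in the labels says whether libraries came from separate animals. Each group had 1 list called on its pooled libraries, from 137191808 fragments in early G1 and 124693948 in late G1, so no value has a replicate error. The 95% intervals below are over peaks or genes and cover counting error only.

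Most open chromatin in a differentiated cell is short: a promoter, an enhancer or an insulator is usually exposed over about the length freed by a few nucleosomes. Wide accessible stretches are known at clusters of enhancers, at CpG-rich promoters of active genes and over tandem repeats that collect many reads. A broad caller also joins weakly enriched neighbouring stretches into 1 region, so a wide call is not by itself 1 wide opening.

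The domains held more GC, more CpG and fewer repeats than short peaks and lay more often where GC was high over whole megabases. Most were far from gene starts, at a median of 46222 bp, though nearer than short peaks, at 56389 bp. A few domains carried the start sites of endothelial genes. In the mm10 sequences printed here, capitals mark each CG pair, the site of DNA methylation in mammals. The first set is the DNA just before the RefSeq starts of 4 endothelial genes in domains, cut where it would enter an annotated exon; 5 of the 7 such genes were matched in the RefSeq promoter table for mm10. It is shown because these starts range from no CG pair to 27. Over all 31396 autosomal RefSeq promoters the median was 6 CG pairs in the 250 bases before the start.
Ephb4, chr5:137349859-137350108, plus strand: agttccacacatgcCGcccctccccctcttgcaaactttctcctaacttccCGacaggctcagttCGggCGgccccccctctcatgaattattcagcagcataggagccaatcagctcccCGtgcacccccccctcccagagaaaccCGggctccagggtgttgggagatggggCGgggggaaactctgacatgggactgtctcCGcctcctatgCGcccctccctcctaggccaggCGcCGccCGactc
Unc5b, chr10:60831582-60831831, minus strand: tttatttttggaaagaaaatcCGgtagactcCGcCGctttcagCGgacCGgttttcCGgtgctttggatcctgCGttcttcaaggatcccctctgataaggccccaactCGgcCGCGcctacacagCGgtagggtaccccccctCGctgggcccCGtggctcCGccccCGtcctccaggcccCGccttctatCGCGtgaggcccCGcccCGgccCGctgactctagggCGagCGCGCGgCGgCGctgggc
Sema3g, chr14:31217623-31217859, plus strand: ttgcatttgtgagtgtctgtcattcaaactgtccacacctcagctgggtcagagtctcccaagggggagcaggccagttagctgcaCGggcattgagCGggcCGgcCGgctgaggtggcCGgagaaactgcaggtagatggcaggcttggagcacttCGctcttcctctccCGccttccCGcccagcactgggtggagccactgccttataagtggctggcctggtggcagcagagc
Emcn, chr3:137340828-137341066, plus strand: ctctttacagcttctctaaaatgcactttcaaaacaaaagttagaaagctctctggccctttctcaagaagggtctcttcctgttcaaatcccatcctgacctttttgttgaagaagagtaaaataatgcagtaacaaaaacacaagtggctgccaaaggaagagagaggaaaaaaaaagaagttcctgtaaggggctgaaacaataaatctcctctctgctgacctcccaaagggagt

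Ephb4 had 12 CG pairs and 4 matches to GGGCGG, the GC box read by SP1-type factors, Unc5b had 27 and 2, and Sema3g had 8 and 1. The Emcn sequence held neither. GGGCGG, searched on both strands, was present in 33.0% of all the 250-base RefSeq promoters. A word match is a description and not a bound site.

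The second set is the central 200 bases of the late G1 peak of highest pileup inside each of the 3 widest domains. It shows the DNA that was also called open in late G1 within these stretches. Each is given on the plus strand.
Zfp831 intron, chr2:174684702-174684901: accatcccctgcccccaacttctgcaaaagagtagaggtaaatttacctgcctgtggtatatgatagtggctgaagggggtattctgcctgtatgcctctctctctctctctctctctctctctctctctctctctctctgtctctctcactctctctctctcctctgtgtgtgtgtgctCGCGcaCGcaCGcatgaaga
Itga9 intron, chr9:118708141-118708340: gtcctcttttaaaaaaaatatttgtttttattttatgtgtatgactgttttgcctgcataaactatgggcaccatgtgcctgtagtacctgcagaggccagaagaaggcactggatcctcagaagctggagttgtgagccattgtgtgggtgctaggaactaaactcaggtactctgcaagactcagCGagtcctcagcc
Between genes, nearest Hs3st1, chr5:40497391-40497590: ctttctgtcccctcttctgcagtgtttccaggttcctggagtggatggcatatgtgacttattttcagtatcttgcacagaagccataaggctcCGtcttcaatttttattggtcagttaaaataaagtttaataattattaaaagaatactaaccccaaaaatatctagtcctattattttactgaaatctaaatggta

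These 3 late peak centres held 4, 1 and 1 CG pairs, and none matched the 6 motif words searched in late peaks. The Zfp831 sequence runs through a long CT repeat, and the sequence near Hs3st1 had a GC share of 34.0%.

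The third is 1 unit of the tandem repeat in the domain of highest pileup, on the plus strand of chr9:3013990-3014223. Here capitals mark bases that are the same in the next copy, and 96.6% of them were; the unit shown is the one that best matches its next copy. Over the whole domain 64.5% of bases matched the base 1 period further on. The best period found in that domain was 234 bp, the unit length of mouse major satellite, the repeat of pericentromeric heterochromatin.
Repeat unit: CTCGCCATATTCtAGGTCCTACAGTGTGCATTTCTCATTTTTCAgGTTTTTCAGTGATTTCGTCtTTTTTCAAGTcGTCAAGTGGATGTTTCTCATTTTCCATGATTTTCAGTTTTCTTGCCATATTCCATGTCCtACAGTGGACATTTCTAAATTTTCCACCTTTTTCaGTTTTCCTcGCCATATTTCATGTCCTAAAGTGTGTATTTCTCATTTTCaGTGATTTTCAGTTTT

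The domains ran from 6000 to 16883 bp with a median of 6862 bp, and together they covered 72.2 Mb, or 3.02% of sequenced autosomal bases. There were 789 domains of 6000 to 6099 bp, just inside the limit, with a median pileup of 29.0, and 899 peaks of 5900 to 5999 bp, just outside it, with a median of 28.9. Both sides had a GC share of 43.8%, and late peaks covered 15.8% of the bases inside the limit and 16.6% outside it. The limit therefore cuts through a continuous range of widths.

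The widest domain, chr2:174672550-174689432, lay in an intron of Zfp831, a zinc finger gene, with its centre 37457 bp from the start. Its 16883 bp had a pileup of 28.3 fragments, 2.05-fold over the local background, and contained 5 late peaks that covered 13.8% of it. The second, chr9:118693857-118710455, lay in an intron of Itga9, which encodes an integrin subunit. The third, chr5:40488590-40505011, was 741325 bp from the nearest start, that of Hs3st1, a heparan sulfate sulfotransferase gene. The Hs3st1 domain had the lowest GC share of the 10 widest, 38.0%, and the largest late coverage, 36.5%.

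Ptprn2, which encodes a phosphatase-like protein of secretory vesicles, held 2 of the 10 widest domains, of 16240 and 15426 bp. The others lay in Gga2, a Golgi sorting adaptor gene, in Arid1b, which encodes a chromatin remodelling subunit, and between genes. Those between genes had Gch1 (biopterin synthesis), Vps13c (lipid transfer) and Tnfsf11 (the ligand RANKL) as nearest starts, 54488, 123594 and 52767 bp from the centre. None of the 10 widest held a protein-coding start site. Their pileups, 27.2 to 34.4, lay close to the median of all domains, and each overlapped 1 to 5 late peaks.

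By bases, 3.54% of domain sequence (95% interval 3.33 to 3.74) was promoter, within 1 kb of a protein-coding start. In short peaks it was 2.86% (2.79 to 2.93) and over the autosomes 2.57%. Exons made up 3.97% of domain bases against 3.16% of short peak bases, and introns 38.6% against 35.9%. The remaining 53.9% of domain bases were intergenic, against 58.1% in short peaks. The share of bases in any annotated gene was 52.7% in domains, 48.2% in short peaks and 48.5% over the autosomes.

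The promoter share was 1.24 times that of short peaks (1.16 to 1.32). Against peaks of 2000 to 4000 bp the ratio was 1.03 (0.972 to 1.10). The higher promoter share thus already held in peaks of middle width.

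The density of start sites in domains and short peaks differed by less than the counting error, and its order changed with the peaks compared. There were 31.2 start sites per Mb of domain sequence (28.9 to 33.5) and 30.0 per Mb of short peaks (28.9 to 31.2), a ratio of 1.04 (0.956 to 1.13), against 21.7 over the autosomes. Among peaks above the median score the ratio fell below 1, to 0.860 (0.774 to 0.956). It was above 1 with a limit of 5000 bp, at 1.10 (1.03 to 1.17), and without domains over 50% repeats, at 1.13 (1.04 to 1.23). The repeat limit was applied to domains only, and short peaks kept their repeat-rich members, so that last ratio does not compare like sets. Counted as gene 5′ ends, the densities were 12.7, 12.1 and 8.68 per Mb. The density was highest in peaks of 4000 to 5000 bp, at 35.2 start sites per Mb.

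In absolute terms, 1096 domains held a start site, 11.0% (10.4 to 11.6), against 3% of all early peaks, which are shorter. The centre of a domain lay at a median of 46222 bp from the nearest start, and that of a short peak at 56389 bp. The 1 Mb window around a domain held 9.72 protein-coding genes per Mb on average (9.51 to 9.93), and that around a short peak 8.64 (8.59 to 8.69), a ratio of 1.12 (1.10 to 1.15). By this wider measure domains lay in the more gene-rich surroundings, though windows of nearby peaks share genes, which these intervals do not take into account.

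**Figure D1:**
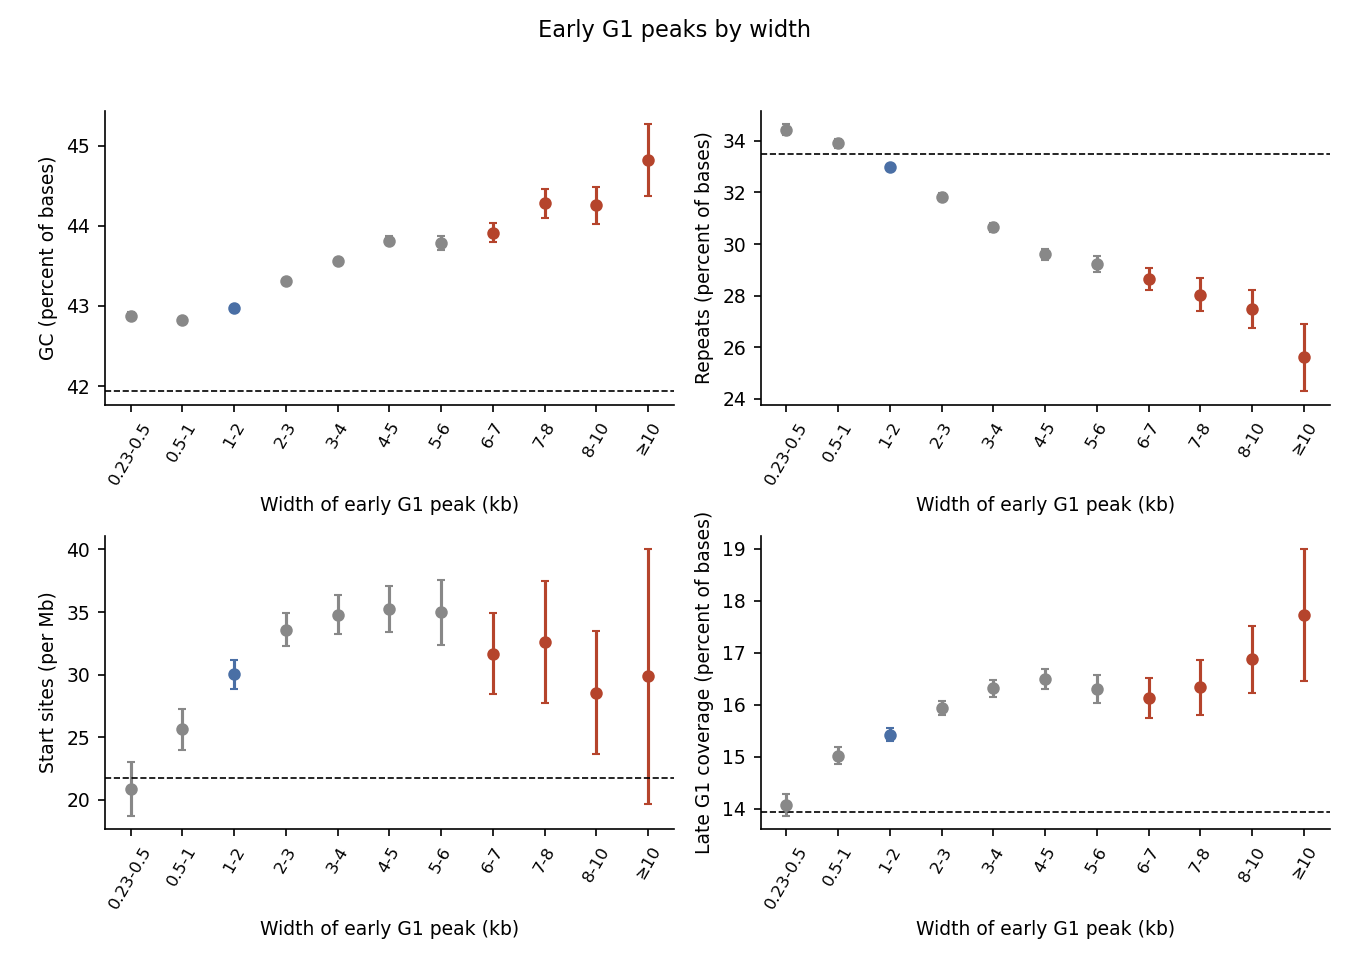
GC share, repeat share, protein-coding start sites per Mb and late G1 coverage of bases in early G1 peaks by called width in kb; red marks the domains, blue the class of 1 to 2 kb, bars are 95% intervals over peaks and dashed lines the autosomal values. GC rose and repeats fell with width, to 44.8% and 25.6% at 10 kb and more, while start sites per Mb were highest in the class of 4 to 5 kb.

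GC made up 44.1% of domain bases (44.0 to 44.2), 43.0% of short peak bases and 41.9% of the autosomes. CpG pairs numbered 9.80 per 1000 bases in domains, 8.91 in short peaks and 8.51 over the autosomes. Repeats, taken as soft-masked bases, made up 28.1% of domains (27.8 to 28.4), 33.0% of short peaks and 33.5% of the autosomes. The central 1000 bp gave the same order, with GC of 44.1% and 42.8% and repeats of 27.6% and 33.2%. Single domains varied widely: from the 5th to the 95th percentile their GC ran from 37.2% to 52.5% and their repeats from 10.5% to 61.9%.

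The composition changed gradually over the last 800 bp before the called edge. In the step of 200 bp starting 800 bp outside a domain, GC was at its lowest in the flank, 42.4%, and repeats were 30.7%. In the step starting 5000 bp outside these were 43.2% and 30.9%, and in the last step outside 43.5% and 29.8%. In the first 200 bp inside a domain, GC was 44.4% and repeats 28.3%. From 800 bp outside to the first step inside, short peaks rose in GC from 41.0% to 43.3%. Their fall in repeats was smaller, from 33.4% to 32.4%. Domains therefore lay in surroundings that were themselves richer in GC and poorer in repeats than those of short peaks. Early peaks were never closer to each other than 924 bp, so the first steps outside an edge hold no early peak by construction.

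**Figure D2:**
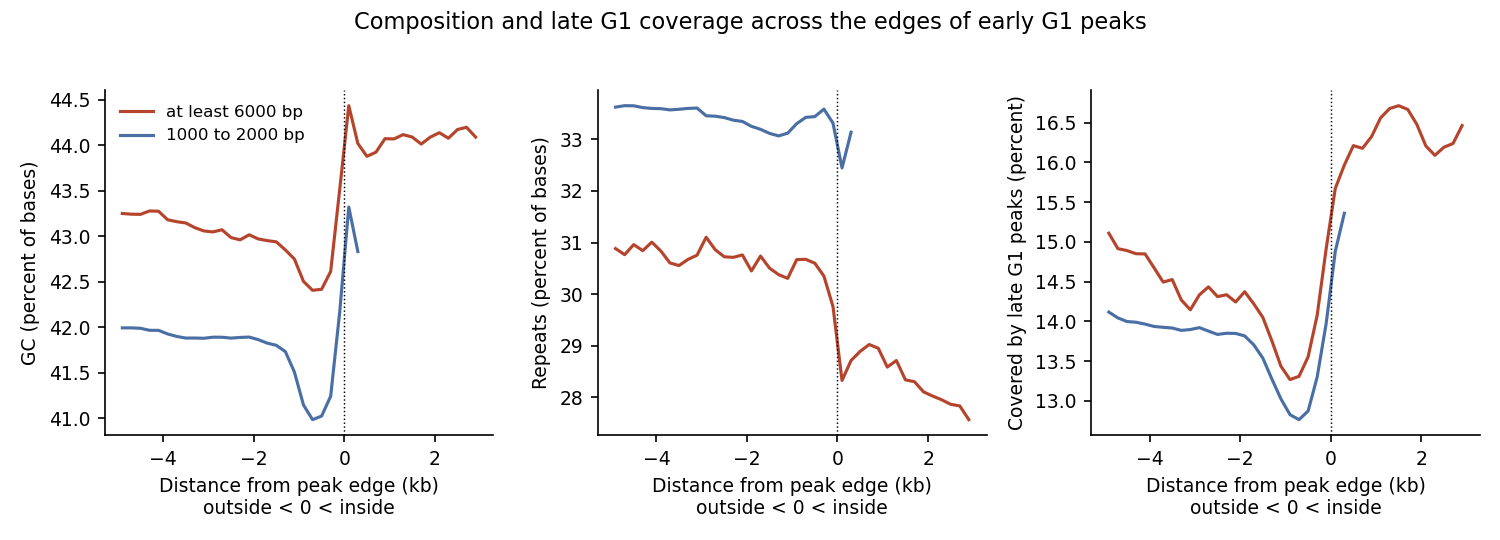
GC share, repeat share and late G1 coverage in steps of 200 bp by distance from the edge of an early G1 peak, negative outside and positive inside, for domains of at least 6000 bp (red) and short peaks (blue). All 3 measures changed across the edge. The red lines lie above the blue for GC and late coverage and below for repeats on both sides.

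Domains were unevenly spread along chromosomes, while short peaks were spread almost evenly. In bins of 1 Mb the number of domains averaged 4.13, ranged from 0 to 13 and had an excess dispersion of 0.0895 (0.0708 to 0.108). The variance of these counts was 1.37 times their mean. Excess dispersion is the variance beyond that of independent counts, divided by the squared mean, and is 0 for independent counts. For short peaks it was 0.00200 over all bins and -0.00177 over the bins at least 90% sequenced, where domains had 0.0856. Of those bins, 71 of 2376 (2.99%) had no domain.

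The next early peak after a domain was itself a domain in 188 of 9976 cases, 1.88% (1.63 to 2.17), against 1.73% after any early peak. The median gap from 1 domain to the next was 146848 bp, and 61.4% of domains (60.5 to 62.4) had another within 100 kb. What independent placement would give for this gap and share was not computed, so they are no measure of clustering. By chromosome the density ran from 3.48 domains per Mb on chromosome 3 (3.20 to 3.79) to 4.73 on chromosome 8 (4.36 to 5.12), while short peaks stayed between 69.1 and 71.5 per Mb. Next in order were chromosomes 12, 18 and 7, with 4.64, 4.61 and 4.58, whose intervals overlap that of chromosome 8.

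Bins rich in GC held more domains. When the bins were divided by GC into 5 classes of equal number, domains per Mb rose from 2.54 (2.40 to 2.69) to 3.61, 4.15, 4.82 and 5.69 (5.48 to 5.91). Short peaks stayed at 69.8 to 71.2 per Mb in the same classes. Within each GC class, bins with more genes did not hold more domains than bins with fewer: in the class of 42.7 to 45.0% GC the values were 4.42 (4.15 to 4.71) and 5.15 (4.87 to 5.43). Gene-poor bins thus held at least as many domains as gene-rich bins of like GC. In the class richest in GC, bins with fewer repeats held 6.03 domains per Mb (5.73 to 6.35) and bins with more repeats 5.35 (5.06 to 5.65). Across the 2376 bins, which share libraries and base composition with their neighbours, the rank correlation of domain number was 0.46 with GC, 0.42 with late coverage, -0.38 with repeats and 0.25 with gene density.

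**Figure D3:**
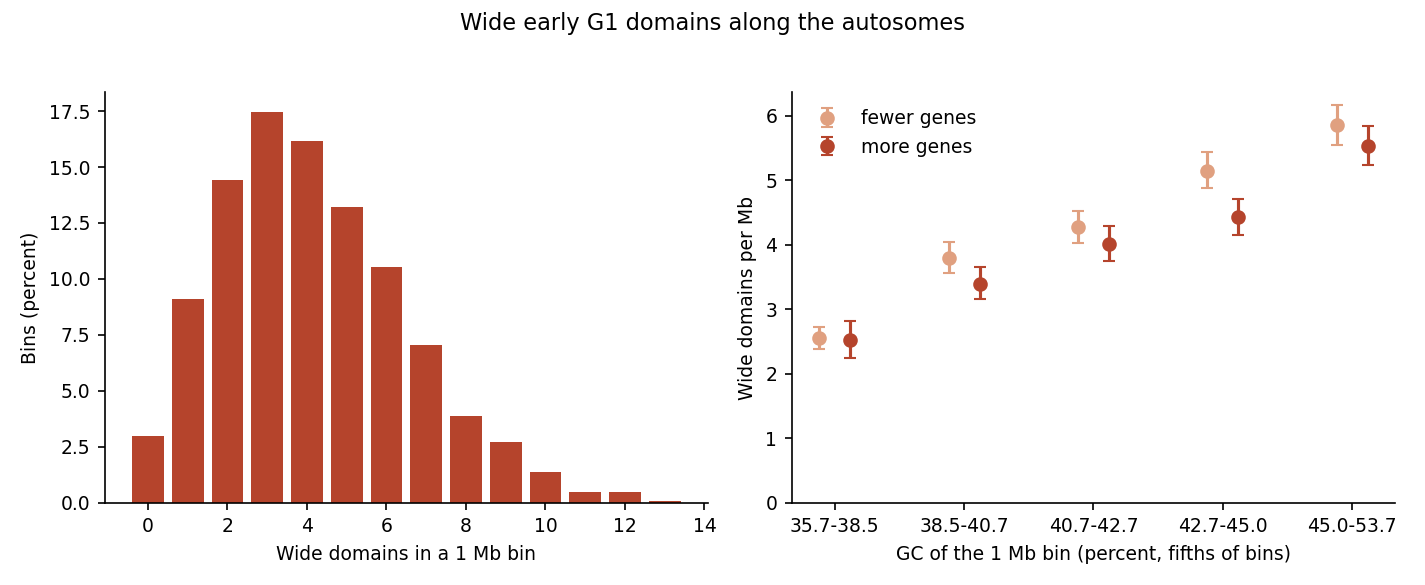
Left, the percent of 1 Mb bins by the number of domains they hold; right, domains per Mb in bins grouped by GC and, within each group, into bins with more or fewer genes than the median, with 95% Poisson intervals. Counts rise with GC from 2.54 to 5.69 per Mb, and the bins with more genes lie at or below the bins with fewer.

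Only 2 bins held 13 domains. In chr12:101000001-102000000 they touched Ccdc88c, Catsperb and Fbln5 (an elastic fibre protein), covered 9.10% of the bin, and 9 of the 13 overlapped a late peak. In chr14:70000001-71000000 they touched 9 of 25 genes, among them Bmp1 (a procollagen protease), Slc39a14 (a metal transporter) and Sorbs3 (a cell adhesion adaptor), and 11 of 13 overlapped a late peak. A further 11 bins held 12. The first of these in order, chr1:85000001-86000000, had pileups from 33.4 to 246, and late peaks covered 32.2% of it. The pileups in the bins on chromosomes 12 and 14 were ordinary, from 25.0 to 39.7.

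Of 20807 autosomal protein-coding genes, 3932 (18.9%) were overlapped by a domain, and this rose with gene length, from 8.46% of genes under 20 kb to 90.8% of genes of 500 kb or more. The share of gene bases in domains moved the other way, from 3.86% to 2.89%. Counts of domains per gene are therefore led by long genes. The gene models with most were Gm20388 (29 domains over 4434882 bp) and Fgfr2 (13 over 2960900 bp), a growth factor receptor gene. Both counts are over the whole span of the annotated model, and where in it the domains lay was not examined. Next came Sox5 with 12, Lsamp with 11, and Fhit, Rbms3 and Thsd7b with 10 each. Sox5, a transcription factor gene, had the highest density of these, 12.6 domains per Mb, with 9 of its 12 domains over a late peak. Ptprt and Rbfox1 had 9, and Gm37240, Lrmda, Prkg1 and Ptprn2 shared the tenth place with 8.

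Among genes of at least 20 kb, domains covered the largest share of Zfp617 (55.2%), Mpzl3 (54.6%), Smpd4 (53.9%), Rnmt (51.7%) and Mroh2a (48.0%). Kcnc4, Pwwp2b, Gga2, Dnajb11 and Otop2 followed with 46.3 to 47.2%. Each of these 10 genes had 1 or 2 domains, and they were 21250 to 35304 bp long. The 2 domains of Mroh2a differed from the rest in pileup, at 128 and 148.

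Median pileup, the mean number of fragments that the caller gives for a peak, was 29.1 in domains and 26.7 in short peaks. Which bases of a joined peak enter that mean was not checked. Since width and pileup come from the same call, these values describe the members only. The local enrichment was 2.04-fold in domains and 2.09-fold in short peaks. With no control sample, the background came from the same libraries over 10000 bp, most or all of which a domain itself fills. The 2 folds are therefore not on a like footing and do not rank wide and short calls by strength. From the 5th to the 95th percentile pileup ran from 24.0 to 38.0.

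A small group stood far above this range. Pileup was over 100 in 31 domains (0.311%), and 10 of the 31 ended within the first 4 Mb of their chromosome. The highest was the satellite domain whose repeat unit is shown above, chr9:3012202-3018696, with a pileup of 11218 and 96.8% repeats. The second was chr9:3029665-3038264, with 5904 and 95.8% repeats. The others of the 5 highest were chr17:3008749-3014984 with 1291, chr16:3231586-3241314 with 805, and chr11:3155215-3164225 in an intron of Sfi1, a centrosome protein gene, with 751. The Sfi1 domain was only 1.28-fold over its background. Late peaks overlapped all 31 domains and covered 70.5% of their bases, and in late G1 the satellite domain had a peak with a pileup of 13540. Repeats made up 39.1% of the bases of the 31, and the part of repeats in these pileups was not tested.

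Late G1 peaks were found in most domains but covered little of each. At least 1 late peak overlapped 8382 domains, 84.0% (83.3 to 84.7), against 37.6% of short peaks and 40.1% of all early peaks. Since a wider peak can overlap more late peaks, coverage of bases was also compared: late peaks covered 16.4% of domain bases (16.1 to 16.7), 15.4% of short peak bases (15.3 to 15.6) and 13.9% of the autosomes. The ratio of domains to short peaks was 1.06 (1.04 to 1.08), and 1.02 (1.00 to 1.04) against peaks of 2000 to 4000 bp. In the 5 kb on either side of a domain late coverage was 14.3%.

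Domains with 1 late peak numbered 4277, with 2 peaks 3199, with 3 peaks 827, with 4 peaks 75 and with 5 peaks 4, and 1594 (16.0%) had none. Late peaks overlapped per Mb numbered 187 in domains and 264 in short peaks, where a late peak that crosses an edge was counted whole. Short peaks have more edges per base, so these 2 densities are not on a like footing. The median domain had 13.9% of its bases in late peaks. Only 227 domains (2.28%) were covered by more than 50%, and 11 by more than 90%. A wide early domain thus rarely corresponded to a late peak of like width.

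Of 360498 autosomal late peaks, 12010 (3.33%) had their centre in a domain, 1.10 times the share of bases that domains take up. Another 185483 (51.5%) had their centre outside every early peak. Short peaks held 11.4% of late centres on 10.2% of sequenced autosomal bases, so a share above that of bases was not particular to domains. Of the late peaks centred in domains, 10427 (86.8%) lay wholly inside. Their median width was 738 bp and their median pileup 52.2, against 688 bp and 51.2 over all late peaks. The share with their centre in a domain was 3.10% (2.92 to 3.28) in the 10% of late peaks with the lowest score, 3.49% at most in between, and 2.95% (2.78 to 3.13) in the 10% with the highest. The late peaks of highest score were thus no more often in wide early domains than the others. Inside domains the late centres were spread evenly: each of 10 equal parts of a domain held 9.53 to 10.6% of them.

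At equal GC of the peak itself, domains and short peaks had similar late coverage in the middle of the range. The domains were divided by their own GC into 5 classes of equal number, and short peaks placed in the same classes. In the 3 middle classes late coverage was 13.9, 16.4 and 18.1% in domains and 13.8, 16.0 and 18.1% in short peaks, with overlapping intervals. In the class richest in GC it was 21.8% (21.2 to 22.5) in domains and 22.8% (22.5 to 23.2) in short peaks. Start sites in that class were 88.0 per Mb (79.3 to 96.6) in domains and 146 (140 to 153) in short peaks. The order was the opposite in the class of 45.0 to 48.0% GC, with 35.2 per Mb (30.0 to 40.4) in domains and 15.5 (13.7 to 17.3) in short peaks, and in the class below it, with 18.6 and 8.81. In the class poorest in GC, late coverage was 11.7% (11.2 to 12.2) in domains and 10.7% (10.5 to 10.9) in short peaks, whose mean GC there was also lower, 37.2% against 38.1%.

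When peaks were instead grouped by the GC of the 1 Mb window around them, domains had the higher late coverage in the 2 classes richest in GC. The values were 17.8% (17.2 to 18.4) against 16.7% (16.4 to 17.0) and 19.9% (19.3 to 20.6) against 18.8% (18.4 to 19.2), and intervals overlapped in the other classes. Start sites per Mb in the same 2 classes were 33.5 (28.6 to 38.3) in domains against 42.3 (39.1 to 45.6), and 70.1 (62.3 to 78.0) against 75.7 (70.6 to 80.8).

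The 1594 domains without a late peak were poorer in GC, at 42.1% (41.9 to 42.3), than the 8382 with one, at 44.5% (44.4 to 44.6). They had 8.34 gene 5′ ends per Mb (6.54 to 10.1) against 13.5 (12.5 to 14.5). Their median width was 6654 bp against 6911 bp.

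**Figure D4:**
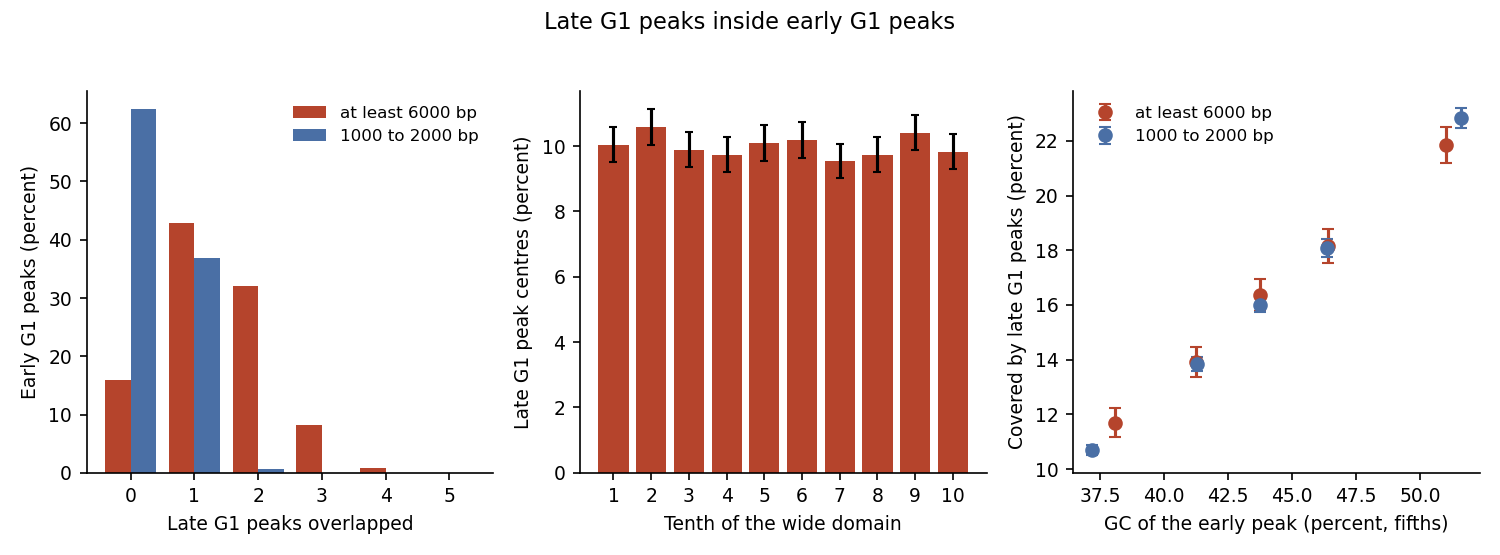
Left, the percent of domains (red) and of short peaks (blue) by the number of late G1 peaks they overlap; middle, the percent of late peak centres in each of 10 equal parts of a domain; right, late coverage by GC class of the early peak, with 95% intervals. Most domains overlap 1 or 2 late peaks, the centres are spread evenly, and red and blue overlap in the 3 middle GC classes.

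A set of 6 short words of known motifs were searched on both strands in the central 200 bp of late peaks. TGANTCA, the AP-1 site, was present in 6.04% of late peaks in domains (5.63 to 6.49), 5.62% of those in short peaks (5.40 to 5.85) and 5.82% of all late peaks. AGGGGGC, the centre of the CTCF insulator motif, was present in 2.39% (2.12 to 2.68), 1.91% (1.78 to 2.04) and 1.84%. The AGGGGGC share was the only one of the 6 whose intervals in domains and short peaks did not overlap. The GC share of these windows was also higher in domains, at 45.6% against 44.6%. GGGCGG (3.48% and 3.39%), CACGTG, the E-box (2.23% and 2.09%), ACAAAGG, a SOX site (4.50% and 4.39%), and CCGGAAGT, an ETS site (0.208% and 0.192%), differed by less than counting error. TGANTCA was present in 6.77% of the 250-base RefSeq promoters and AGGGGGC in 9.47%.

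Genes with a start in a domain and genes with a start in a short peak had overlapping intervals for the share open there in late G1. Each gene was scored at its starts inside peaks of the class named. Of 20722 autosomal protein-coding genes, 1188 (5.73%) had a start site in a domain, and 771 of these (64.9%, 62.1 to 67.6) had a late peak within 1 kb of it. The share was 63.1% for genes with a start in a short peak (61.6 to 64.6) and 68.5% for genes with a start in any early peak (67.7 to 69.2). Genes with no start in any early peak, scored at all their starts, had a lower share, 55.7% (54.4 to 57.0). Over all 20722 genes, also scored at all their starts, the share was 68.5% (67.9 to 69.1). Genes with a start in a domain were scored at fewer of their starts, so this share and theirs are not on a like footing. Of the start sites in domains, 34.9% lay in the middle 1/3 of the domain. The promoter share of domain bases rose from 2.97% in the first 200 bp inside the edge to 3.98% in the step 2800 bp inside, and was 3.85% in the central 1000 bp.

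The domains with most gene starts were compact clusters. The domain chr10:81384195-81395745 held 4 gene 5′ ends, those of Dohh (a hypusine-forming enzyme gene), Gm48551, Gm48552 and Smim24. The domain chr2:25231695-25243045 also held 4, of Slc34a3 (a phosphate transporter gene), Rnf224, Cysrt1 and Rnf208. The next 3 domains had 3 each: Rnaseh2a, Gm49661 and Prdx2; Arl16 and Hgs; and the satellite domain on chromosome 9, whose gene models are Gm10719, Gm10720 and Gm10721. Counted by annotated start sites, which rise with the number of transcripts of a gene, the leading domains lay at Mocs2, Cln3 and Apobr, Timm9 and 2700049A03Rik, Sphk1 (a sphingosine kinase gene), and Mia2.

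Of 65 autosomal genes in 4 endothelial lists combined, 7 had a start in a domain, 10.8% (4.44 to 20.9), against 5.73% over all genes. They were Cdh5 (the junction protein VE-cadherin), Emcn (the sialomucin endomucin), Unc5b (a netrin receptor), Jag1 (a Notch ligand), Sema3g (a semaphorin), Ephb4 (the venous receptor for ephrin-B2) and Pdgfb (the growth factor that recruits pericytes). The interval holds the value over all genes, so the lists are not shown to differ from it. By list the counts were 2 of 24 for pan-endothelial genes, 3 of 19 for arterial, 2 of 15 for venous and 2 of 15 for tip cell genes, with genes in more than 1 list counted in each.

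The Pdgfb domain was the widest of these, at chr15:80008509-80018919, 10411 bp, with a pileup of 36.0 and 3 late peaks. Unc5b lay in chr10:60824061-60833331, with the highest pileup of the 7, 41.1, and 2 late peaks. The Cdh5 domain, chr8:104095800-104102021, had a pileup of 40.3 and 1 late peak that covered 7.89% of it. The Jag1 domain, chr2:137114700-137120835, had 3 late peaks over 54.1% of its length, the largest coverage of the 7. The Sema3g domain, chr14:31209558-31218779, had 1 late peak with a pileup of 201, the highest of the 7. The Ephb4 domain, chr5:137346360-137352637, had 1 late peak of pileup 22.9 over 4.19% of it, the lowest on both counts. In the Emcn domain, chr3:137333653-137341449, the start lay near the downstream end, and GC was 42.2%, the lowest of the 7, as in the sequence printed above.

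Counting any part of the gene, 19 of 65 endothelial genes (29.2%, 18.6 to 41.8) were overlapped by a domain, against 18.9% of all genes, whose median length was 17629 bp against 19740 bp. The 12 reached only away from a start were Kdr, Flt1, Flt4 and Nrp1 and Nrp2 (receptors and co-receptors for VEGF), Tek and its ligand Angpt2, Notch1 and Notch4, Erg, Apoe and Icam1. The Flt4 domain had the highest pileup of these, 49.9. The Notch1 domain, with 3 late peaks, had the highest late pileup, 419. The Icam1 domain had no late peak. These genes fall outside the rule for named genes and are given because they complete the count.

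In the Notch pathway list 1 of 20 genes had a start in a domain (Jag1). Hes1 was not counted: a domain, chr16:30056133-30064897, took in its gene from 30064384 but no start of a coding transcript. In the TGF-beta and BMP list 2 of 28 genes had a start in a domain. These were Acvr2a, a receptor gene with 1 late peak in its domain, and Smad5, a signal transducer gene with none. None of 32 genes of the G1 to S list had one, which allows a share of up to 9.38% when the limit is set at 3 counts of the total, and of up to 10.9% by the exact 95% interval. Of the housekeeping list 3 of 17 had one, among them Tubb5 (tubulin) and Actb (actin), with 4 and 2 late peaks. Of the developmental transcription factor clusters 1 of 28 had one, Hoxd3. In the lists of other retinal cells, pericytes, microglia and blood, photoreceptors, retinal neurons, Müller glia and progenitors, and astrocytes, the count was 0 of 10, 0 of 10, 0 of 12, 0 of 18, 0 of 13 and 0 of 8. Over these 71 genes a count of 0 allows a share of up to 4.23% at 3 counts of the total, and of up to 5.06% by the exact 95% interval. Only starts of coding transcripts were counted. Gene 5′ ends were not counted by list, so the 0 of these 71 genes holds for that definition only. Their gene bodies were overlapped in 15 of 71 cases, 21.1% (12.3 to 32.4), close to 18.9% over all genes.

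**Figure D5:**
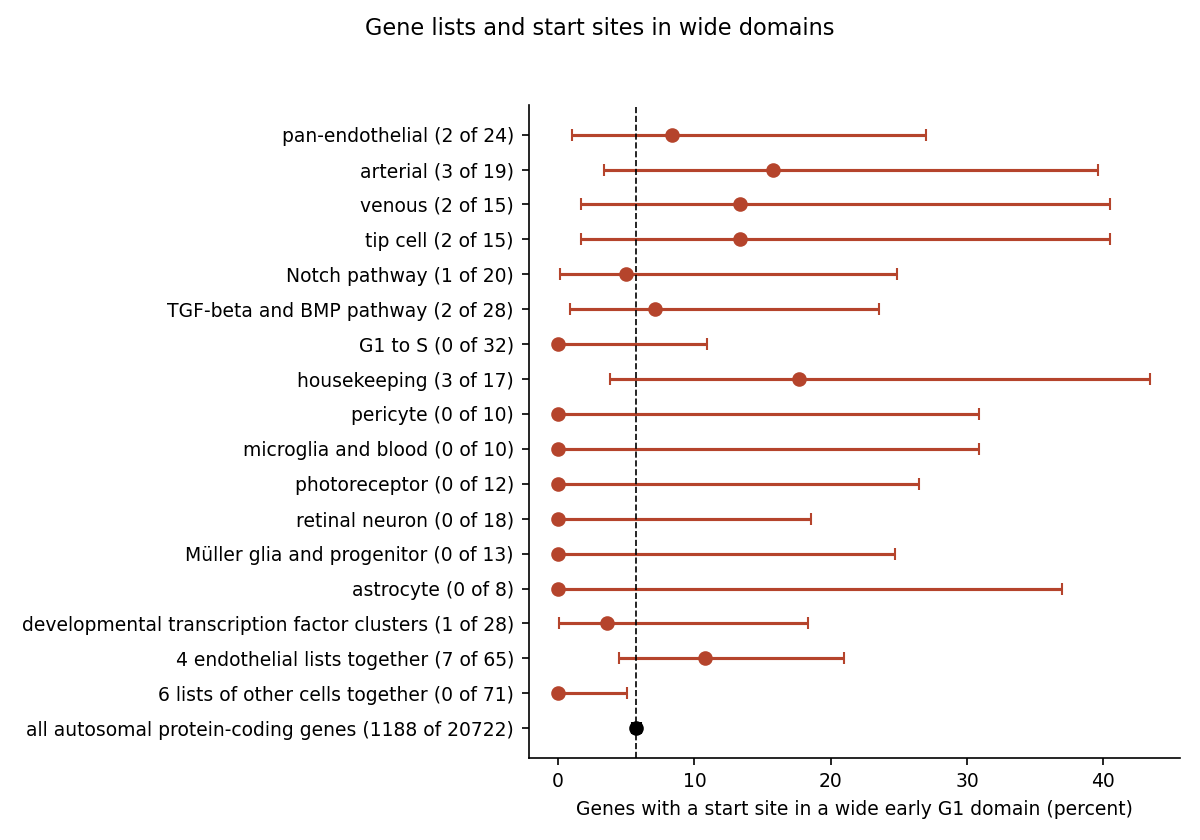
Percent of the genes of each list with a protein-coding start site in a domain, with exact 95% intervals; the dashed line is the value over all autosomal protein-coding genes, 5.73%. Single-list intervals all include the line. Only the pooled lists of other cells lie wholly below it, with an exact upper bound of 5.06%, when starts are those of coding transcripts. Gene 5′ ends were not counted by list.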

How the data were processed

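ATAC-seq libraries, 7 in all, entered 2 pooled peak lists, 1 per group. The submitters' processing notes name mm10 as build and STAR, Trimmomatic, MACS2 and bedtools as tools. Calling was done by the authors in the broad mode of MACS2 2.2.7.1 with no control sample, per the file headers, with q-value cutoffs of 0.05 (narrow) and 0.1 (broad) and a local background over 10000 bp. The signal is the deposited pileup, mean fragment coverage not scaled to depth; overall coverage was 11.0 in early and 10.3 in late G1. The fold is the authors' ratio of pileup to background. The score is the authors' deposited −log10 q-value, whose heading was damaged and which was placed by MACS2's column order. Pileup, fold and score are the authors' values and only described or ranked peaks within a list. Width is the deposited peak length.

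Peaks were placed on GRCm38 (mm10) with GENCODE M21, with 20807 autosomal protein-coding genes, 20722 of them with an annotated coding transcript start, in the order promoter (1 kb), exon, intron, intergenic. Overlap meant 1 bp. The score of an early peak was called high above the list's median. Ratios of bases have 95% intervals that treat peaks as independent, shares have exact Clopper-Pearson intervals, and densities per Mb have Poisson intervals. No test was run, each group having a single list. The members, gene lists and tests were chosen with earlier results of these data known. Named genes were those at the 10 widest domains, at the 5 of highest pileup, with most domains, with the largest domain share, in the 3 bins with most domains, in domains with most start sites, and up to 4 per list by width; a selection is given, 1 gene of the housekeeping list is not reported here, and the 5 domains with most late bases are in the closing section. Measures were checked by direct counting on 529 peaks of chromosome 19, with 0 differences, and the interval methods were tested on simulated data. The tools were pandas 2.3.3, SciPy 1.17.1, NumPy 2.4.6 and matplotlib 3.10.9 under Python 3.11.15. Alternatives were other width limits, peaks above the median score, other comparison peaks, bins, promoter distances and overlaps, and the domains without those of high pileup or many repeats.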

Additional observations from a re-analysis of the deposited data

Results flagged for a closer look

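Chromosome X lay outside the comparisons and is given because domains were present there. It held 142 early peaks of at least 6000 bp among 30035, 0.473% (exact 95% interval 0.398 to 0.557), against 1.73% on the autosomes. Their median pileup was 26.2, against 29.1, and the widest was 9964 bp. The labels do not give the sex of the mice, and its part in the difference was not tested.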

How the results depend on the processing

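No paired analysis was possible because each group has 1 list called on pooled libraries, so the replicate numbers in the labels have no columns; no library could be left out. Of 51 alternative values, 19 stayed within the 95% interval of the reported value, and 32 moved outside it. The number of domains has no interval: its changed values are counted among the 32 and its unchanged value among the 19. The start-site ratio, 1.04 with an interval that includes 1, fell below 1 in 3 settings: above the median score, against peaks of 2000 to 4000 bp, and at 8000 bp (0.961). It was 1.10 at 5000 bp, 1.13 without domains over 50% repeats and 1.12 for genes in the 1 Mb window, each with an interval above 1. No other ratio crossed 1. The number of domains was 22285 at 5000 bp, 1994 at 8000 bp and 5646 among peaks above the median score. Joining peaks closer than 100 bp left 9976, and could change nothing because the smallest gap was 924 bp. Above the median score, the ratio of domains to short peaks was 0.860 for start sites, 1.12 for promoter bases, 1.04 for pileup, 1.02 for GC and 0.873 for repeats. Against peaks of 2000 to 4000 bp these were 0.914, 1.03, 1.05, 1.02 and 0.897, and 1.02 for late coverage. The promoter ratio was 1.33 by centre and 1.34 within 3 kb. Without domains over 50% repeats, an alternative added after the data were seen, it was 1.34, with 1.03 for GC and 0.733 for repeats. Short peaks were not cut by repeats, so these ratios and the 1.13 for start sites compare a filtered set with an unfiltered one. Excess dispersion was 0.0651 at 5000 bp and 0.161 at 8000 bp. The late coverage ratio was 1.11 at 8000 bp and 1.10 with late peaks above the median score. Domains with a late peak were 80.1% with 50% of it inside and 54.0% with late peaks above the median score. The GC ratio was 1.02 at 5000 bp, 1.03 at 8000 bp and 1.03 in the central 1000 bp; that of repeats was 0.868, 0.820 and 0.830. Endothelial genes reached were 29.2% by any part of the gene. The cause of these shifts was not tested. Without the 31 domains of pileup over 100, also added later, start site, promoter, late coverage, GC and repeat ratios stayed within their intervals. Each group is 1 pool, so differences between lists cannot be assigned to cell cycle phase, and depth sets what either list could detect.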

Other observations

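The 5 domains with most bases in late peaks were mostly repeat-rich. They were chr16:3231586-3241314 and chr9:3029665-3038264, both described above, then chr3:6297715-6307543, chr7:64082343-64090684 and chr1:85301812-85312098. The domain on chromosome 3 had an ordinary pileup of 40.3 but 99.7% repeats and a GC share of 62.4%, and a single late peak covered 91.1% of it. Its nearest start, of 1700008P02Rik, was 317814 bp away. The domain on chromosome 7 had a pileup of 375 and was nearest Trpm1, an ion channel gene, at 67322 bp. The domain on chromosome 1 lay 36389 bp from the start of C130026I21Rik, with 3 late peaks over 79.1% of it. Early peaks of 1000 to 2000 bp with a pileup over 100 numbered 93, or 0.0552% of such peaks, against 0.311% of domains.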
